A study of Homo sapiens with 6 samples.

Results

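The genes described here are 10 spliceosomal small nuclear RNA (snRNA) genes, measured in KMS27, an established human line of malignant plasma cells from multiple myeloma. They were chosen by exact symbol and comprise RNU4-1, RNU4-2, RNU5A-1, RNU5B-1, RNU5D-1 and RNU5E-1 of the major spliceosome and RNU11, RNU12, RNU4ATAC and RNU6ATAC of the minor spliceosome. These are 10 of 63677 genes in the deposited table, spread over 11 gene IDs and 13 transcripts, because RNU6ATAC was listed under ENSG00000221676 and ENSG00000268972 with identical values. Total RNA was sequenced from 3 wild type libraries and 3 libraries of cells with HA-TAZ overexpression, and the design asked what HA-TAZ changed in the transcriptome. HA is a peptide tag. TAZ is the product of WWTR1, a coactivator of transcription under control of the Hippo pathway. All libraries share the KMS27 background. The promoter that drives HA-TAZ, and whether the cells are 1 clone or a pool, are not given in the sources used here. The titles of the wild type samples also carry HA, and the labels do not say whether those cells received a construct. The control columns carry a name that is in no label and were taken as wild type by elimination, so they are named controls a, b and c. Libraries were made in triplicate per the labels' protocols, and nothing says that they came from separate cultures, so the p-values measure only the spread between these libraries, which may be technical.

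Spliceosomal snRNAs are short nuclear RNAs that base-pair with a pre-mRNA and with each other while an intron is removed. In the major spliceosome U1 and U2 recognise the intron ends, and U4, U6 and U5 join together as the tri-snRNP, in which U4 holds U6 until the spliceosome is activated and U5 aligns the 2 exons. The minor spliceosome removes a rare class of introns with U11 and U12 in the places of U1 and U2, and with U4atac and U6atac in those of U4 and U6, and shares U5. Most of these RNAs are made by RNA polymerase II, receive a ring of Sm proteins in the cytoplasm and return to the nucleus. U6 and U6atac are made by RNA polymerase III and bind LSm proteins. They lack poly(A) tails, so a library of total RNA without poly(A) selection can hold them.

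The sequences below are the annotated transcripts in GENCODE 29, matched by versioned transcript ID and written 5′ to 3′ in DNA letters. The U4 pair is shown because the copies are 97.2% identical over 141 bases, which bears on how reads can be assigned to either. Capitals mark the 4 bases that differ, at positions 37, 88, 99 and 113 from the 5′ end.
RNU4-1: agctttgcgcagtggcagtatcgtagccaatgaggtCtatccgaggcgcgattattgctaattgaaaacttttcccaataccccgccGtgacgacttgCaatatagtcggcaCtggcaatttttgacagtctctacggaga
RNU4-2: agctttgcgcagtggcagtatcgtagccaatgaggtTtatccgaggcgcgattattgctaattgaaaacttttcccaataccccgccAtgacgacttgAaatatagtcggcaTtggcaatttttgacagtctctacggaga

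RNU11 and RNU12 are shown because RNU11 had the highest level and the smallest p of the members, and because RNU12 is the start of a longer transcript. Capitals mark the Sm pattern.
RNU11: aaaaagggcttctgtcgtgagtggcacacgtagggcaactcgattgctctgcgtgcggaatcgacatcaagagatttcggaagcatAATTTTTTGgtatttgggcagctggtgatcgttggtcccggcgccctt
RNU12: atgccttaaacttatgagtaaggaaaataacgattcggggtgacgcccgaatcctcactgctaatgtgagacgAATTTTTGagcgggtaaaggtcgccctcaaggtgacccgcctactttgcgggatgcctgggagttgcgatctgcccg

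The longer RNU12 transcript goes on past the end of the snRNA with the following bases, the first 60 of 514.
RNU12 continuation: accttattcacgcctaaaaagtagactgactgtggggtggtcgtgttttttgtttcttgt

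The Sm pattern was searched as AATTTTTG or AATTTTTTG on the given strand, and no site can match both forms. It was found in 9 of the 10 members, all but RNU6ATAC. Among other GENCODE 29 transcripts of 116 to 150 bases it was in 29.4% of 180 snRNA transcripts, in 0 of 382 small nucleolar RNAs and in 3.95% of all 1467. A match is a description of the letters only.

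The members lie on 6 chromosomes. Coordinates are those of GENCODE 29 on GRCh38, while the submitters' processing notes name GRCh37 and the deposited tables hold no coordinates. RNU4-1 (ENSG00000200795, chr12:120293097-120293237) and RNU4-2 (ENSG00000202538, chr12:120291763-120291903) are neighbours on the minus strand, 1193 bases apart. RNU5A-1 (ENSG00000199568, chr15:65296051-65296166) lies on the plus strand in an intron of PARP16, which is on the opposite strand, and RNU5B-1 (ENSG00000200156, chr15:65304677-65304792) lies on the same chromosome outside any gene. RNU5D-1 (ENSG00000200169, chr1:44731055-44731170) is on the minus strand outside any gene. RNU5E-1 (ENSG00000199347, chr1:11908152-11908271) lies on the plus strand within an exon of AL021155.2 on the same strand. RNU11 (ENSG00000270103, chr1:28648600-28648733) and RNU12 (ENSG00000270022, chr22:42615244-42615393) both lie on the plus strand. RNU12 lies at the start of a longer non-coding transcript, of Z93241.1. The 134 bases of RNU11 start where a shorter non-coding transcript of 131 bases does, of AL360012.1. In the deposited table these 2 transcripts carry the gene IDs of RNU12 and RNU11. RNU4ATAC (ENSG00000264229, chr2:121530881-121531007) lies on the plus strand in introns of CLASP1, on the opposite strand, and of AC012447.1, on the same strand. RNU6ATAC (chr9:134164439-134164564) is on the minus strand outside any gene.

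Values are TPM, which divide by an effective transcript length rather than the plain number of bases. They state a share of a library, so the depth of a single library is unknown. Scaled TPM is TPM divided by 1 median-of-ratios factor for each library. The factors were 0.866 to 0.967 for HA-TAZ libraries and 1.06 to 1.21 for controls. The scaling sets the direction for some members: the median log2 fold change over the 22651 genes tested was −0.03 with scaled TPM and −0.27 with TPM as deposited. WWTR1 ranged from 293 to 306 TPM with HA-TAZ and from 1.69 to 2.69 TPM without (log2 fold change 6.80, limma adjusted p = 1.14e-05), which checks the labels. All 10 plasma cell marker genes found in the table passed the level filter, with SLAMF7 higher and CD38 lower by the test. Of 13 markers of other cell types, 10 were below the filter and MPO was listed at 0 in 5 of 6 libraries. The 3 that passed were KRT8, PECAM1 and COL1A1. Their means were 2.35, 1.96 and 1.47 TPM with HA-TAZ and 3.82, 3.29 and 1.37 TPM in controls. Summed, the 13 markers reached 8.34 to 8.93 scaled TPM with HA-TAZ and 9.68 to 11.8 in controls. Their part in the results was not tested.

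All 10 members passed the filter of a mean TPM of at least 1. In control libraries RNU11 had the highest scaled TPM, 302 ± 24.9 (SD, n = 3), apart from the next member RNU4-2 at 137. RNU4-2, RNU5A-1 at 132, RNU5E-1 at 123, RNU4-1 at 109 and RNU5D-1 at 90.2 followed, and each overlapped its neighbour in this order. RNU5B-1 at 63.5, RNU4ATAC at 31.3 and RNU12 at 21.3 scaled TPM were each apart from the member before. RNU6ATAC had the lowest level, 7.38 scaled TPM under each of its IDs. Added over both IDs RNU6ATAC was at 14.8 ± 7.37 scaled TPM (SD, n = 3) in controls, and single control libraries, from 8.77 to 23.0, then overlapped those of RNU12, from 15.5 to 25.0. In HA-TAZ libraries RNU11 was again the highest, at 462 ± 73.8 scaled TPM (SD, n = 3). RNU5E-1 at 181 came next and overlapped RNU5A-1 at 165.

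These levels rest on few counts. The means in the authors' deposited table correspond to 527 estimated counts for RNU11 in a typical library, 231 for RNU4-2, 189 for RNU4-1 and 165 for RNU5E-1. They correspond to 45.5 for RNU4ATAC, 33.9 for the RNU12 snRNA and 9.41 for each RNU6ATAC ID. The counting error alone is 4.36% for RNU11 and 32.6% for RNU6ATAC, and it does not cover the assignment of reads between copies. The snRNA transcripts of the members had 1.02 to 1.80 estimated counts for each TPM, against a median of 42.1 over 56001 transcripts with a mean TPM of at least 1. The order by counts also differs from that by TPM. RNU4-1 had 189 estimated counts and RNU5A-1 153, at mean TPM of 120 and 147 over all libraries.

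**Figure D1:**
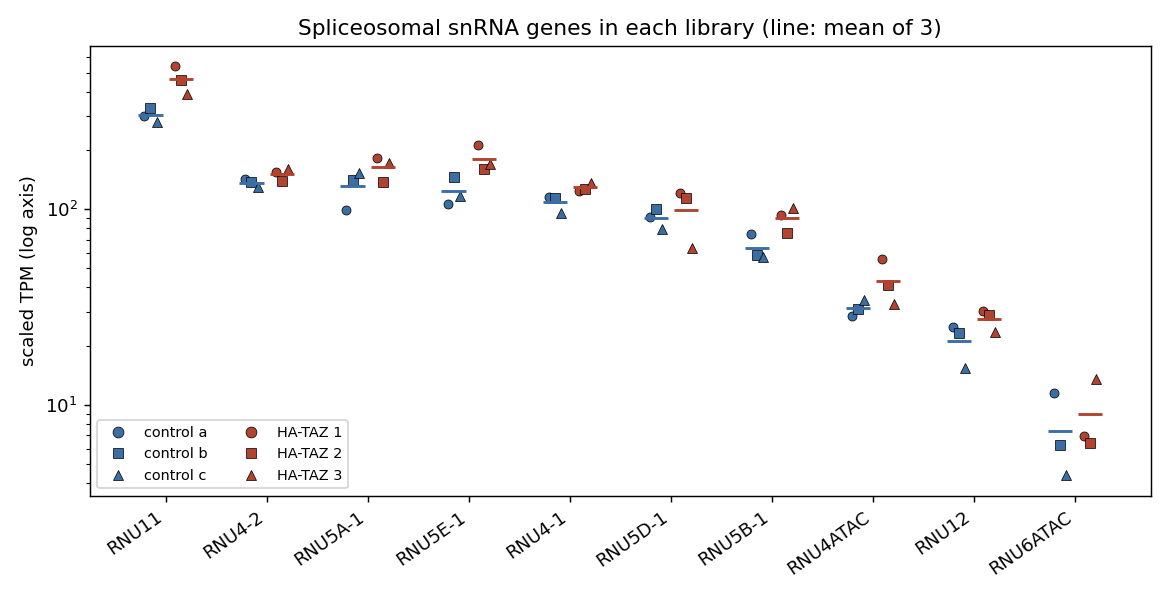
Scaled TPM (log axis) of each snRNA gene in each of the 6 libraries, with blue symbols for control, red symbols for HA-TAZ and a line at the mean of 3. RNU11 stands above all others in every library, RNU4-1, RNU5B-1, RNU5E-1 and RNU11 have every HA-TAZ value above every control value, and RNU6ATAC has the widest spread.

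The comparison of HA-TAZ with control asked whether snRNA levels differ. No member passed the test over all genes, but all 10 had a positive log2 fold change on scaled TPM, with a median of 0.36. With limma and Benjamini-Hochberg adjustment 0 of 10 members were called at 0.05, where 7.29% of all tested genes were called. At an unadjusted p under 0.05 there were 4 members, RNU11, RNU5E-1, RNU5B-1 and RNU4-1, all with higher means in HA-TAZ, where 30.7% of all genes reached that level and 16.6% did so with higher means. Over all tested genes 46.7% had a log2 fold change above 0. The same 4 members were without overlap between the groups, against 20.2% of all genes that were without overlap and higher in HA-TAZ and 38.5% without overlap in either direction. With TPM as deposited all 10 members overlapped between the groups, and the log2 fold changes of RNU4-1, RNU4-2 and RNU5D-1 were −0.04, −0.15 and −0.20. In this small design the exact permutation test of a single gene cannot go below p = 0.1.

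**Figure D2:**
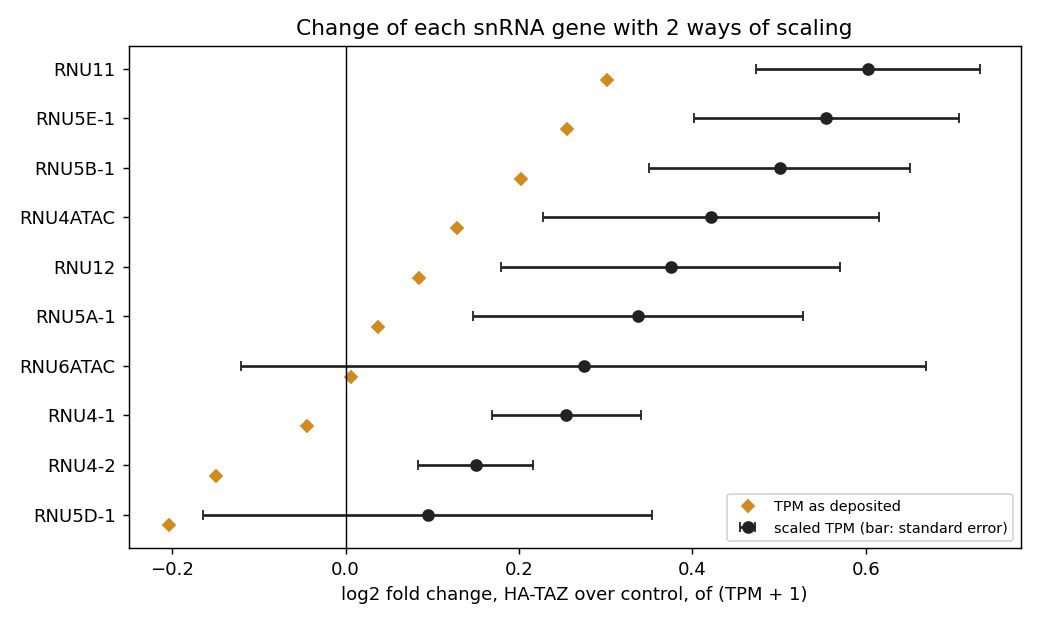
Log2 fold change of each snRNA gene (x axis, HA-TAZ over control, of TPM + 1), from scaled TPM with its standard error (black) and from TPM as deposited (orange). All 10 are above 0 with scaled TPM, from 0.09 for RNU5D-1 to 0.60 for RNU11, and each deposited value lies further left.

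U4 is described first, by its 2 member genes. RNU4-1 was at 124, 127 and 137 scaled TPM in HA-TAZ libraries and at 116, 114 and 95.8 in controls a, b and c. The lowest HA-TAZ library was above the highest control. On the log2 scale this was a difference of 0.25 (standard error, SE, 0.09, limma adjusted p = 0.115). RNU4-2 was at 155, 140 and 161 scaled TPM in HA-TAZ libraries and at 142, 138 and 131 in controls. HA-TAZ 2 was below control a, so the groups overlapped. The log2 fold change of RNU4-2 was 0.15 (SE 0.07, limma adjusted p = 0.188). RNU4-1 took 46.0 ± 1.53% of the TPM of the pair in HA-TAZ libraries and 44.2 ± 1.64% in controls (SD, n = 3 each), with overlap, a ratio that the scaling does not touch. The split between the 2 copies rests on their 4 differing bases.

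U5 is the snRNA that both spliceosomes use. RNU5E-1 was at 213, 162 and 170 scaled TPM in HA-TAZ libraries and at 107, 146 and 117 in controls. Every HA-TAZ library was above every control, and HA-TAZ 1 was the highest. The means were 181 ± 27.5 and 123 ± 20.5 scaled TPM (SD, n = 3 each), a ratio of 1.47, and the log2 fold change was 0.55 (SE 0.15, limma adjusted p = 0.0785). RNU5B-1 was at 93.4, 75.7 and 101 scaled TPM in HA-TAZ libraries and at 75.2, 58.3 and 56.9 in controls. HA-TAZ 2 was just above control a, so the groups stood apart by a narrow margin. The log2 fold change of RNU5B-1 was 0.50 (SE 0.15, limma adjusted p = 0.0923).

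The other U5 copies overlapped between the groups. RNU5A-1 was at 182, 139 and 173 scaled TPM in HA-TAZ libraries and at 99.2, 142 and 154 in controls. Control a was the only library far below the rest, and HA-TAZ 2 was below 2 of the controls. Its log2 fold change was 0.34 (SE 0.19, limma adjusted p = 0.282). RNU5D-1 was at 121, 114 and 63.5 scaled TPM in HA-TAZ libraries and at 91.2, 101 and 78.9 in controls. HA-TAZ 3 was the lowest of all 6 libraries while the other two HA-TAZ libraries were the highest. Its log2 fold change was 0.09 (SE 0.26, limma adjusted p = 0.829), and turned to −0.07 without HA-TAZ 1 and −0.03 without HA-TAZ 2.

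Within the U5 genes the share of RNU5E-1 was 34.9, 33.0 and 33.5% in HA-TAZ libraries and 28.7, 32.8 and 28.8% in controls. The groups did not overlap, though control b came within a small margin of HA-TAZ 2. The shares of RNU5A-1, RNU5B-1 and RNU5D-1 overlapped. The 4 U5 genes added up to 536 ± 64.7 scaled TPM in HA-TAZ libraries and 409 ± 37.2 in controls (SD, n = 3 each), and the 2 U4 genes to 281 ± 15.2 and 245 ± 16.7. The ratio of U5 to U4 was 1.91 ± 0.246 in HA-TAZ libraries and 1.67 ± 0.197 in controls (SD, n = 3 each), with overlap.

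RNU11, the RNA of the minor spliceosome that pairs with the 5′ splice site, had the smallest p of the members. It was at 538, 458 and 390 scaled TPM in HA-TAZ libraries and at 299, 328 and 279 in controls. All HA-TAZ libraries were above all controls, and HA-TAZ 1 was the highest. The means were 462 ± 73.8 and 302 ± 24.9 scaled TPM (SD, n = 3 each), a ratio of 1.53. The log2 fold change was 0.60 (SE 0.13, limma unadjusted p = 0.00367, adjusted p = 0.0501). The adjusted p ran from 0.0328 to 0.153 over 16 alternatives and was under 0.05 in 3 of them. The log2 fold change stayed positive in all 16, from 0.30 with TPM as deposited to 0.72 without HA-TAZ 3. As deposited, RNU11 was at 465, 443 and 347 TPM in HA-TAZ libraries and at 362, 358 and 295 in controls, where HA-TAZ 3 was below control a and control b.

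RNU4ATAC, which chaperones U6atac as U4 does U6, was at 55.5, 41.3 and 32.7 scaled TPM in HA-TAZ libraries and at 28.4, 30.9 and 34.6 in controls. HA-TAZ 3 was below control c. The log2 fold change was 0.42 (SE 0.19, limma adjusted p = 0.202). RNU6ATAC, whose RNA takes part in the catalytic centre of the minor spliceosome, was at 6.95, 6.43 and 13.6 scaled TPM under each ID in HA-TAZ libraries and at 11.5, 6.26 and 4.38 in controls. The highest and the lowest library of either group differed widely, with coefficients of variation of 44.6 and 50.0%. The log2 fold change of RNU6ATAC was 0.27 (SE 0.39, limma adjusted p = 0.672), and turned to −0.04 without HA-TAZ 3.

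RNU12, the RNA that pairs with the branch site of minor introns, needs its transcripts kept apart. The gene held the 150-base snRNA (ENST00000362512.1) and a 664-base transcript (ENST00000602478.1, Z93241.1 in GENCODE 29, a long non-coding RNA at chr22:42615244-42615907). The first 150 bases of the longer transcript are the snRNA, so every stretch of 31 bases of the snRNA also occurs in it. As deposited, the snRNA was at 18.0, 21.6 and 14.5 TPM in HA-TAZ libraries and at 26.0, 21.3 and 12.1 in controls. The spread among controls covered all HA-TAZ libraries. In the fit over transcripts its log2 fold change was 0.20 (SE 0.24, limma adjusted p = 0.639).

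As deposited, the longer RNU12 transcript had 8.31, 6.18 and 6.45 TPM in HA-TAZ libraries against 4.27, 4.29 and 4.26 TPM in controls. All HA-TAZ libraries were above all controls on both scales, which held for no member gene with TPM as deposited. The means were 6.98 ± 1.16 and 4.27 ± 0.0142 TPM (SD, n = 3 each), a ratio of 1.63. That control spread, a coefficient of variation of 0.331%, is below the counting error of 7.75% for this transcript. It is therefore no measure of how tight the controls are. On scaled TPM the means were 7.75 ± 1.66 and 3.83 ± 0.264 (SD, n = 3 each). In the fit over transcripts its log2 fold change was 0.84 (SE 0.15, limma adjusted p = 0.0732), where 0.534% of 57448 transcripts were called. Its adjusted p ran from 0.0418 to 0.188 over 15 alternatives and was under 0.05 in 1. Means of the authors' deposited table put 167 estimated counts on the longer transcript, 83.1% of those of the gene. Its share of the TPM of the gene was 28.2 ± 5.16% in HA-TAZ libraries and 19.0 ± 6.22% in controls (SD, n = 3 each), with overlap. For the whole RNU12 gene the log2 fold change was 0.37 (SE 0.20, limma adjusted p = 0.248), on 30.3, 28.7 and 23.6 scaled TPM in HA-TAZ libraries and 25.0, 23.4 and 15.5 in controls. POLDIP3, whose gene lies 281 bases away, had a log2 fold change of −0.03 (limma, adjusted p = 0.753).

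**Figure D3:**
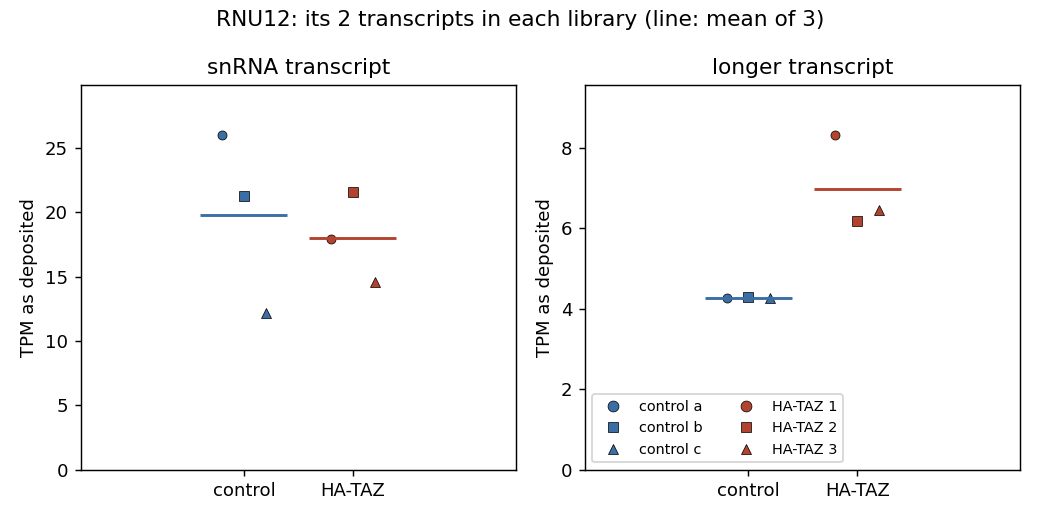
TPM as deposited (y axis) of the snRNA transcript (left) and the longer transcript (right) of RNU12 in each library, with a line at the mean of 3. The snRNA values of the groups overlap, while the 3 HA-TAZ values of the longer transcript, 6.18 to 8.31, are above the control values of 4.26 to 4.29.

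The 4 minor spliceosome genes, with RNU6ATAC counted under 1 ID, added up to 542 ± 85.4 scaled TPM in HA-TAZ libraries and 362 ± 27.9 in controls (SD, n = 3 each), of which RNU11 made the larger part. They took 39.7 ± 2.92% of the TPM of all members in HA-TAZ libraries and 35.6 ± 1.06% in controls, with overlap. All members together took 0.123 ± 0.00965% of the deposited TPM in HA-TAZ libraries and 0.114 ± 0.0100% in controls (SD, n = 3 each), with overlap. RNU11 also had a second transcript of 131 bases (ENST00000602813.1), identical to its first 131 bases and listed at 0 in all libraries.

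The authors' deposited table is a second look at the same libraries, with transcripts tested one by one in sleuth. Of 109487 transcripts in the authors' deposited table, 5.68% had a q-value under 0.05, and 4.08% did so with a positive effect. There, in the authors' deposited table, the natural log effect was 0.444 for RNU11 (SE 0.0951, q-value 2.63e-04). For RNU5E-1 the authors' deposited table gives 0.419 (SE 0.134, q-value 0.0355). For the longer RNU12 transcript the authors' deposited table gives 0.695 (SE 0.135, q-value 3.22e-05), and for the RNU12 snRNA 0.164 (SE 0.261, q-value 0.836). For the remaining members the q-values in the authors' deposited table were 0.222 to 0.898. So RNU11, RNU5E-1 and the longer RNU12 transcript passed the threshold of the authors and not that of limma.

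Each of these snRNAs has pseudogene copies elsewhere in the genome. Copies were taken by symbol, as the family's symbol with a number, with or without P, or as the family's name alone, such as U4 and U4atac. RNU5F-1, which is not a member, was left out of the copies too. This gave 182 gene IDs, with IDs of identical values above 0 counted once. Of these 113 were above 0 in some library and 67 were tested. The median log2 fold change of the 67 was −0.44, and 48 were negative. Over the 676 tested genes of type snRNA in GENCODE 29 other than members the median was −0.42. That set leaves out only the members, so it is not separate from the copies. Of the 67 copies 9 had a mean under 1 TPM in 1 of the groups, 6 in HA-TAZ and 3 in control, so they passed the filter through the other group. Among the 67 copies 2 were called lower (limma), where 2.63% of all genes were, so the count does not set the copies apart. Both are named after their values were seen. RNU4-47P was lower in HA-TAZ libraries, at 20.4, 24.2 and 23.3 scaled TPM against 40.3, 33.9 and 45.8 in controls, with a log2 fold change of −0.79 (limma, adjusted p = 0.0302). RNU11-2P was at 5.05, 11.5 and 9.32 scaled TPM in HA-TAZ libraries and 24.2, 25.0 and 18.7 in controls, with a log2 fold change of −1.35 (limma, adjusted p = 0.0485). RNU6ATAC10P was listed at 0 in all controls and at 0.875 to 3.25 TPM in HA-TAZ libraries, and since it passed the filter through HA-TAZ alone no test is given for it. With any 1 of the 6 libraries left out, RNU4-47P and RNU11-2P were no longer under 0.05 (limma), with adjusted p of 0.0504 at the lowest.

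The share that the copies took of their family does not depend on the scaling. For U4 the copies took 41.1, 41.0 and 42.5% of the family in HA-TAZ libraries and 52.5, 51.3 and 56.4% in controls. The groups stood apart. In scaled TPM the U4 copies added up to 200 ± 17.7 in HA-TAZ libraries and 281 ± 14.7 in controls (SD, n = 3 each), while neither of the 2 U4 members passed the test. With TPM as deposited the means of the copies and of both U4 members were lower in HA-TAZ. For U11 the copies took 1.70, 4.39 and 3.03% of the family in HA-TAZ libraries and 9.57, 8.85 and 7.48% in controls. For U4atac they took 48.2, 52.3 and 61.4% in HA-TAZ libraries and 75.1, 64.4 and 66.1% in controls. These 2 families did not overlap between the groups either. Of all tested genes 38.5% were without overlap on scaled TPM, and no such share was computed for families. RNU11-2P, named above, made most of the U11 copies. Its means were 8.62 of 14.2 scaled TPM in HA-TAZ libraries and 22.6 of 28.7 in controls. Without the 3 tested genes that carry only a family's name, an alternative chosen after seeing the data, the U4 shares were 39.4 to 40.1% against 49.5 to 53.4% and the U4atac shares 37.7 to 53.2% against 55.4 to 69.2%, again without overlap. For U5 the shares were 22.5 ± 2.86 and 22.8 ± 2.58% (SD, n = 3 each), with overlap. For U6atac, with both RNU6ATAC IDs counted, they were 78.0 ± 4.97 and 84.4 ± 5.83% (SD, n = 3 each), also with overlap.

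How far reads can be told apart bears on these shares. Of the stretches of 31 bases in each member, 47.7% occurred in no other GENCODE 29 transcript for RNU4-1, 60.4% for RNU4-2 and 59.3 to 61.6% for RNU5A-1, RNU5B-1 and RNU5D-1. For RNU4ATAC 100% did so. It was 2.88% for RNU11, whose stretches were shared with 1 transcript, the second one of its own gene, and with 0 other snRNA transcripts. It was 15.6% for RNU6ATAC, and 0% for RNU5E-1 and RNU12, which lie inside longer annotated transcripts. For RNU12 the longer transcript has values in the deposited table. For RNU5E-1 the gene ID of AL021155.2 was not found in the deposited table. Its 0% therefore rests on GENCODE 29 and may not hold for the authors' quantification. The annotation used by the authors may hold other transcripts, and how reads were divided between members and copies was not tested.

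**Figure D4:**
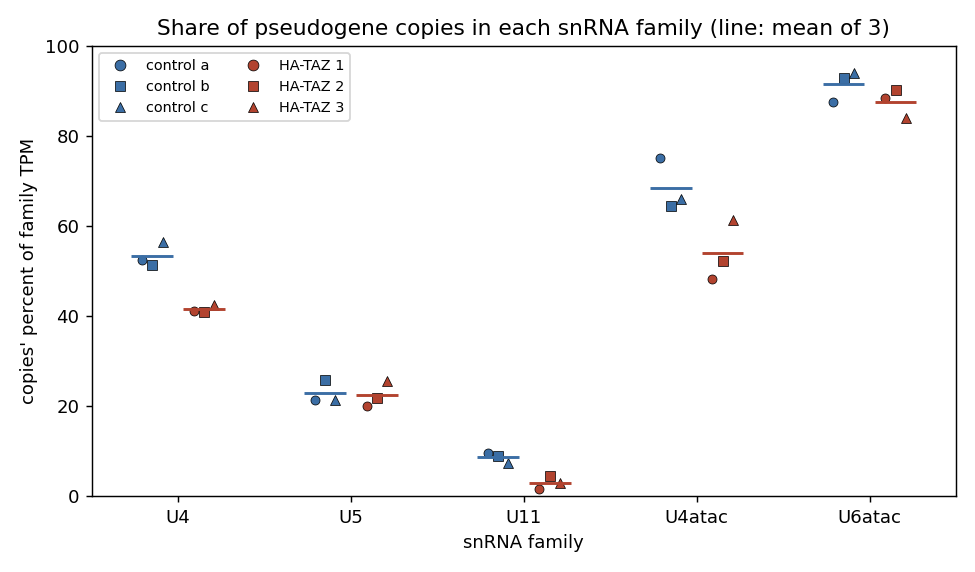
Percent of the summed TPM of each snRNA family that its pseudogene copies took (y axis, 0 to 100) in each library, with RNU6ATAC counted under 1 ID and a line at the mean of 3. The HA-TAZ values lie below all control values for U4, U11 and U4atac and overlap them for U5 and U6atac.

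Other snRNAs and short RNAs set the frame. The 5 U1 genes RNU1-1, RNU1-2, RNU1-3, RNU1-4 and RNVU1-18 had identical values, so the quantification did not tell them apart, with a log2 fold change of −0.08 (limma, adjusted p = 0.707). The U1 variant genes RNVU1-6, RNVU1-7 and RNVU1-15 had log2 fold changes of 0.90, 0.60 and 0.56 (limma, adjusted p = 0.0569, 0.0764 and 0.0543). The U6 genes RNU6-1, RNU6-2 and RNU6-9, also identical in value, were at 58.8, 60.1 and 52.4 scaled TPM in HA-TAZ libraries and at 34.3, 43.6 and 37.6 in controls. They were called higher, with a log2 fold change of 0.56 (limma, adjusted p = 0.0387), and were the called genes among 14 other snRNA genes tested. Their adjusted p ran from 0.0245 to 0.130 over 15 alternatives (limma) and was under 0.05 in 6. RNU2-2P, a U2 gene, had a log2 fold change of 0.50 (limma, adjusted p = 0.160). The median log2 fold change was 0.04 over 148 C/D box small nucleolar RNA genes, −0.11 over 192 H/ACA box genes and 0.07 over 34 small Cajal body RNA genes. The members' median of 0.36 was above each of these and above the −0.42 of the 676 tested genes of type snRNA other than members. It was below the median of 0.56 over the 14 other snRNA genes, where genes of identical value each count. A higher median is therefore not particular to the members, and these are descriptions without a test.

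Genes that encode proteins of the snRNPs, and of their transcription and assembly, were read from lists. Of 103 such genes tested, 11 were called higher and 0 lower (limma), where 4.67% of all genes were called higher and 2.63% lower. At TPM as deposited 0 of these 11 were called, with scaling over protein-coding genes 3 were, and with any 1 of the 6 libraries left out none was. The median log2 fold change over the 103 genes was 0.13. Among the Sm core proteins 1 of 8 was called, SNRPE at 0.32 (limma, adjusted p = 0.0420). Among the LSm proteins that bind U6 1 of 6 was called, LSM2 at 0.42 (limma, adjusted p = 0.0393).

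Of proteins bound to U4 and U6, 1 of 6 was called. It was PRPF4, a protein of the U4/U6 snRNP, with a log2 fold change of 0.30 (limma, adjusted p = 0.0260). Of the U5 and tri-snRNP proteins 2 of 11 were called, SART1 at 0.28 and PRPF6, which bridges U5 and U4/U6, at 0.29 on the log2 scale (limma, adjusted p = 0.0345 and 0.0411). All 11 genes of that list had positive log2 fold changes with scaled TPM, while with TPM as deposited 9 of the 11, SART1 among them, had lower means in HA-TAZ. Of the U1 and U2 proteins 4 of 15 were called, SNRPC at 0.32, SF3B4 at 0.23, SNRPA1 at 0.23 and PHF5A at 0.32, with adjusted p from 0.0307 to 0.0469 (limma), while SF3B4 and SNRPA1 were at −0.07 and −0.06 with TPM as deposited, where 12 of the 15 had lower means in HA-TAZ.

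On the list named U11/U12 proteins, 5 of 10 tested genes had positive log2 fold changes with scaled TPM, with a median of −0.03. With TPM as deposited 9 of the 10 had lower means in HA-TAZ. Whether each protein on it is particular to U11 and U12 was not checked. SCNM1 was called higher at 0.24 (limma, adjusted p = 0.0469) and was at −0.05 with TPM as deposited. Of 23 genes for snRNA transcription and 3′ end formation 1 was called, SNAPC1, a subunit of the complex that binds snRNA promoters. It was at 8.66, 8.81 and 8.33 scaled TPM in HA-TAZ libraries and at 5.0, 5.86 and 5.39 in controls, with a log2 fold change of 0.58 (limma, adjusted p = 0.0213). Of 24 genes for snRNP assembly none was called by limma, and STRAP and GEMIN6 had the smallest p, with log2 fold changes of 0.28 and 0.30 and adjusted p of 0.0536 and 0.0547, where STRAP was at −0.02 with TPM as deposited.

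**Figure D5:**
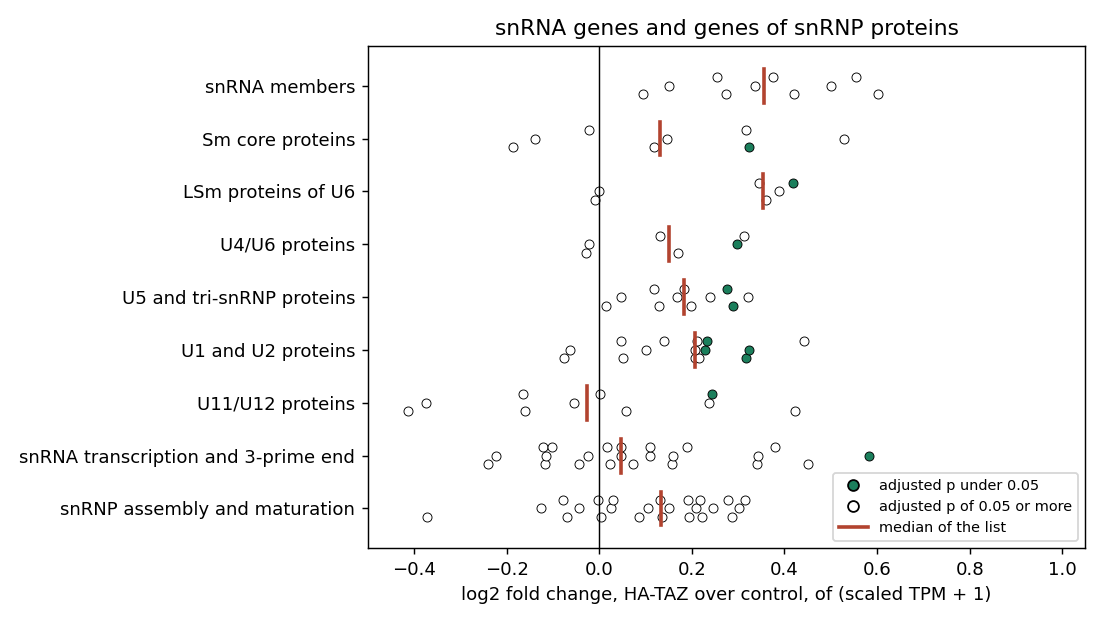
Log2 fold change (x axis, HA-TAZ over control, of scaled TPM + 1) of each tested gene in the snRNA members and in 8 lists of snRNP proteins and factors, with green points for adjusted p under 0.05 and a red line at each median. No member is green, 11 of 103 list genes are, and the U11/U12 list has a median of −0.03 beside 0.36 for the members.

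The tested genes whose values over the 6 libraries were most like the mean profile of the members were RNU5A-8P, ZNF714, PFDN2, DNAJB5 and CDH2, with Pearson correlations of 0.990 to 0.994. The members' own mean profile was highest in HA-TAZ 1 and lowest in control c. RNU5A-8P is a U5 copy and was at 71.5, 49.2 and 57.1 scaled TPM in HA-TAZ libraries and at 37.2, 39.8 and 26.9 in controls, with a log2 fold change of 0.76 (limma, adjusted p = 0.0672). These are correlations over few libraries and serve as a description. Of genes that hold a member in an intron, CLASP1 around RNU4ATAC had a log2 fold change of 0.03 (limma, adjusted p = 0.765) and PARP16 around RNU5A-1 of 0.07 (limma, adjusted p = 0.554). Both are on the strand opposite to their member. AC012447.1, around RNU4ATAC on the same strand, was below the filter and not tested. Its means were 0.489 scaled TPM with HA-TAZ and 0.324 in controls, with overlap.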

How the data were processed

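Total RNA of 6 KMS27 libraries was depleted of ribosomal RNA and sequenced as stranded libraries from both ends, per the labels' protocols. Per the submitters' processing notes the authors used kallisto 0.46.0, sleuth 0.30.0 and GRCh37. The deposited table gives TPM for 215170 transcripts, and each library sums to the same total. The authors' deposited table of their comparison gives p-values and q-values, with effects and means on a natural log scale, per the file headers. Fragment lengths and strand settings are not given in the sources used here.

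TPM was summed per gene ID. The test took the 22651 of 63677 genes whose mean TPM was 1 or more. TPM was divided by median-of-ratios factors over 21512 tested genes above 0 in all libraries. The test was limma 3.58.1 with an intensity trend in R 4.3.3, two-sided, on log2(scaled TPM + 1). Benjamini-Hochberg adjustment ran over all genes, with a threshold of 0.05. The pseudocount of 1 understates changes of low genes. Tried on simulated data for this comparison with 22651 genes, the test recovered 83% of log2 changes of 1 and 90% of log2 changes of 2. It called 9 unchanged genes. The noise was normal and independent, and only genes above a minimum level were changed. Changes as small as those of the members, at most 0.60, were not simulated, so the recovery does not cover them. Estimated counts are those implied by the authors' natural log means. Sequences and coordinates are from GENCODE 29 on GRCh38. Python 3.11.15, pandas 2.3.3, Biopython 1.88 and matplotlib 3.10.9 were used.

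The members and lists were chosen with earlier results of these data known. The text names all members, up to 4 called genes for each list or else the 2 with the smallest p, the 5 genes most like the members, and WWTR1. Alternatives changed the scaling, pseudocount, filter and trend, or left out 1 library. Added after the data were seen were the scaling over 33614 genes above 0 in all libraries, and tests of single transcripts. Sequences of the U5 genes are not reported here.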

Additional observations from a re-analysis of the deposited data

How the results depend on the processing

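The count of members called higher was 0, and became 1, RNU11, with a pseudocount of 10, with a mean TPM of at least 5 (adjusted p = 0.0328), and with scaling over all genes above 0, an alternative chosen after seeing the data. The count of members higher without overlap was 4, where 20.2% of all genes were higher without overlap. It was 0 with TPM as deposited, 2 with scaling over protein-coding genes (RNU5E-1 and RNU11) and 3 with scaling over small nucleolar RNA genes. Scaling over all genes above 0 gave 5. When 1 library was left out it was 4 to 7, with 7 without HA-TAZ 3 and 7 without control a. Leaving out a library can only keep or raise such a count, for any set of genes. The share over all genes was not computed for these alternatives. Over all genes 1652 were called, against 3329 with TPM as deposited, 691 with no filter on level, 758 without trend, and 115 to 433 when 1 library was left out. Of the calls 64.0% were higher, against 7.84% with TPM as deposited, 43.5% with scaling over protein-coding genes and 75.4% with scaling over small nucleolar RNA genes.

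With TPM as deposited the log2 fold changes of RNU4-1, RNU4-2, RNU5D-1, SART1, SF3B4, SNRPA1, SCNM1, STRAP and ZNF714 reversed, to −0.045, −0.149, −0.204, −0.019, −0.066, −0.063, −0.051, −0.021 and −0.110. When 1 library was left out, RNU5D-1 ran from −0.074 (without HA-TAZ 1) to 0.388 (without HA-TAZ 3), with −0.030 without HA-TAZ 2. RNU6ATAC ran from −0.035 (without HA-TAZ 3) to 0.608 (without control a). None of the 11 called genes of the protein lists was called when any 1 library was left out. The cause was not tested. No paired analysis was possible because the control columns cannot be tied to numbered samples. Depth is unknown for single libraries, and counting error limits RNU6ATAC, RNU12 and RNU4ATAC most.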
